A study of Mus musculus with 9 samples.

Results

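The 4 genes described here encode members of the tristetraprolin family and HuR, which bind AU-rich stretches in messenger RNAs and act in opposite directions on their lifetime. They were chosen by name as Zfp36 (tristetraprolin itself), its relatives Zfp36l1 and Zfp36l2, and Elavl1 (HuR), and make up 4 of the 19938 genes measured with a probe of a single gene symbol. Each had 1 such probe. They were followed in the MA-10 line, which derives from a Leydig tumour of the mouse and produces steroids in response to cyclic AMP, on 9 Affymetrix whole-transcript arrays. Cells in serum-free medium received DMSO (3 arrays, the control), 10 µM forskolin (3 arrays) or 10 µM forskolin together with 1 mM AICAR (3 arrays), each for 1.5 h. Forskolin switches on adenylyl cyclase, and AICAR is converted in cells to an AMP mimic that activates AMP-activated protein kinase. Both treated groups carried forskolin, and cells given AICAR alone were not analysed here. The labels do not say whether replicates were separate cultures, so p-values measure the spread between these samples, which may be technical.

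ZFP36 proteins bind AU-rich elements through a pair of CCCH zinc fingers and bring the CCR4-NOT deadenylase to the message, which is then decapped and degraded. HuR binds similar elements and protects many of the same messages. The genes of the ZFP36 family are themselves early response genes in many cells, and the message of Star, which encodes the protein that delivers cholesterol to the inner mitochondrial membrane for steroid synthesis, is a reported target of the family in steroidogenic cells.

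The promoters of Zfp36l1 and Zfp36 are shown because these relatives differed in their values after forskolin. Each sequence is the 250 bases before the RefSeq start site on the minus strand of GRCm38.p6, at chr12:80113014-80113263 for Zfp36l1 and chr7:28379229-28379478 for Zfp36. Capitals mark matches to the motifs searched.
Zfp36l1: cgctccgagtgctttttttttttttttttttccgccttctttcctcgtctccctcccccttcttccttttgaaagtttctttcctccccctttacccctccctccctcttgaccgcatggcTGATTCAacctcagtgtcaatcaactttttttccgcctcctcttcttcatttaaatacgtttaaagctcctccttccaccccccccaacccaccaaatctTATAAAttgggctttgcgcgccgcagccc
Zfp36: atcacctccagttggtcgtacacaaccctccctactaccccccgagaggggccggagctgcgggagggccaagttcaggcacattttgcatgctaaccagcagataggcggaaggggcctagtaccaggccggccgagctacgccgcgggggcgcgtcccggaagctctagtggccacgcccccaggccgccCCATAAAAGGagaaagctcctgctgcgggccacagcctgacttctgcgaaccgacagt
The search covered both strands of 300 bases, from 250 before to 50 after the start, for 6 motifs. They were the cyclic AMP response element TGACGTCA, its core TGACG (which also lies inside the full element), the AP-1 site TGANTCA, the NR4A site AAAGGTCA, TATAAA and the CArG box of serum response factor. Zfp36l1 held 1 AP-1 match, at -129 to -123 from the start, and 1 TATAAA match, at -29 to -24. Zfp36 held 1 CArG match, at -58 to -49 from the start. Among all 32851 RefSeq promoters of this length, 7.81% held the AP-1 site, 13.6% TATAAA, 1.63% a CArG box, 20.8% the TGACG core and 1.79% the full element. Neither these promoters nor that of Elavl1 held the core or the full element in this window. Such matches are a description of letters and not of binding.

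Of the 6 measured Leydig cell markers, with mean log2 values of 8.58 to 11.88 in control, Nr5a1 and Cyp11a1 read highest, at 11.88 and 11.70. Markers of other cell types read between 4.12 and 7.82 in control except Sox9, Dhh, Gata1 and Cdh5 (9.88, 8.41, 9.08 and 11.97). The array medians lay between 7.14 and 7.19 over all probes. Interquartile ranges were 3.349 and 3.341 on AICAR replicates 2 and 3, and 3.416 to 3.482 on the other arrays. The largest axis of spread within groups (46% of it) set AICAR replicate 1 and AICAR replicate 3 at opposite ends (scores 12.2 and -11.5). Replicate 3 of control and of forskolin (6.4 and 6.9) lay on the side of AICAR replicate 1. Replicate 1 of control and of forskolin (-4.13 and -4.64) lay on the side of AICAR replicate 3. The fitted differences of the 4 genes, the counts of called genes and the calls of list genes were recomputed without each array in turn. Of the Leydig markers, Star (1.89) and the lipoprotein receptor gene Scarb1 (0.35) were called higher after forskolin (limma adjusted p = 2.8e-07 and 0.00757). Star (-2.05), Hsd3b1 (-0.59), which encodes a steroidogenic enzyme, and Scarb1 (-0.35) were called lower with AICAR than with forskolin (adjusted p = 5.21e-07, 0.0437 and 0.0024). In the same contrast the Sertoli cell marker Sox9 (-0.46) and the macrophage marker Cd68 (-0.39) were also called lower (limma adjusted p = 0.00134 and 0.00676). Each was the 1 called gene of 6 measured in its list. In both lists 3 differences were above 0 and 3 below, with medians of 0.046 and 0.028 against 0.023 over all genes. The part of these markers in the results was not tested. In RNA from whole cultures, fewer cells of a type and less RNA per cell cannot be told apart. Over all genes, limma called 138 changed after forskolin at an adjusted p under 0.05, or 0.692% of those tested. AICAR added to forskolin changed 1017 (5.1%), of which 195 were higher and 822 lower (389 and 766 after quantile normalization), and forskolin with AICAR differed from control in 1739 (8.72%). Without AICAR replicate 1 the counts of these AICAR comparisons were 3324 and 4741.

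Forskolin raised Zfp36l1 1.72-fold and Zfp36l2 1.19-fold, whereas Zfp36 and Elavl1 did not pass the test. The Zfp36l2 call was borderline and was lost on removal of any 1 of the 9 arrays. Thus 2 of the 4 genes were called, both higher, where 0.497% of all genes were called higher and 0.196% lower. In cells that received AICAR with forskolin, Zfp36l1 was 1.56-fold above control, and Zfp36l2 fell 1.41-fold from its forskolin level to 1.19-fold below control.

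**Figure D1:**
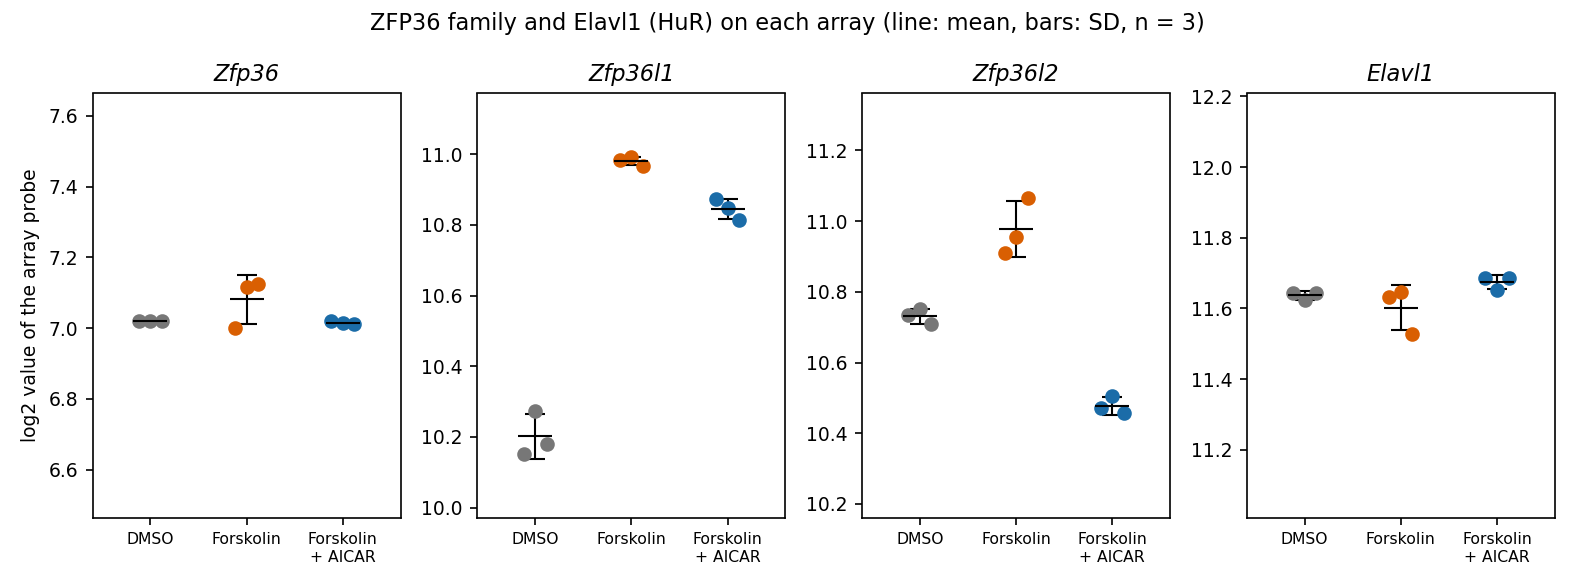
Log2 value of each gene's probe (vertical axis, every panel spanning 1.2 log2 units) on each of the 9 arrays by treatment, with the mean and SD of 3 arrays. Zfp36l1 is high with forskolin with or without AICAR, Zfp36l2 is highest with forskolin and lowest with AICAR, and Zfp36 and Elavl1 stay within narrow ranges.

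Zfp36l1 encodes a decay factor of the same kind as tristetraprolin, known for roles in development and in restraining growth. Its log2 values were 10.15, 10.27 and 10.18 on the control arrays, 10.98, 10.99 and 10.97 with forskolin, and 10.87, 10.85 and 10.81 with forskolin and AICAR. Every treated array lay above every control array, as for 6.85% of all genes with forskolin and 15.2% with AICAR present, and the AICAR arrays all lay just under the forskolin arrays. The rise over control was 0.78 on the log2 scale after forskolin (SE 0.04, limma with Benjamini-Hochberg adjusted p = 1.62e-05), which ranked 19 from the top among all genes. With AICAR present it was 0.64 (SE 0.04, 1.56-fold, adjusted p = 6.22e-05), rank 17 from the top, in a contrast where 3.04% of all genes were called higher. The difference between the treated groups was -0.14 (SE 0.04, 95% interval -0.227 to -0.044) and did not pass over all genes (limma adjusted p = 0.0967). The forskolin and AICAR arrays did not overlap for Zfp36l1, which held in the lower direction for 12.2% of all genes. Both rises were called under every one of the 18 other settings. The treated groups differed at adjusted p = 0.042 with a trended and robust prior and at adjusted p = 0.015 with array weights.

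Zfp36l2 encodes another family member, known for its part in the maturation of egg cells and blood cells. On the control arrays its log2 values were 10.73, 10.75 and 10.71, against 10.91, 10.96 and 11.07 with forskolin and 10.47, 10.51 and 10.46 with forskolin and AICAR. The 3 groups did not overlap, in the order AICAR lowest, control between and forskolin highest. Groups failed to overlap in 14% of all genes for forskolin against control (6.85% higher and 7.13% lower), 23.6% for AICAR against forskolin and 29.5% for AICAR against control. AICAR lowered Zfp36l2 from the forskolin level (log2 difference -0.50, SE 0.04, limma adjusted p = 0.000431) and left it under control (-0.25, SE 0.04, adjusted p = 0.0105). For comparison, 4.12% of all genes were called lower in the former contrast and 5.68% in the latter. Both falls were called under each of the 18 other settings, with differences from -0.533 to -0.444 and from -0.283 to -0.224. The rise after forskolin alone was at the edge of the call (0.25, SE 0.04, adjusted p = 0.0491). It lost the call in 13 of the 18 settings, among them the removal of any 1 of the 9 arrays (log2 difference 0.202 to 0.28, adjusted p = 0.062 to 0.21), and kept its sign in all 18.

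Zfp36, the founding member, gave 7.019 on all 3 control arrays, 7.001, 7.117 and 7.126 with forskolin, and 7.019, 7.015 and 7.012 with forskolin and AICAR. Only forskolin replicates 2 and 3 stood above the other arrays, and forskolin replicate 1 was the lowest of all 9. The log2 difference was 0.06 after forskolin (SE 0.04, 95% interval -0.029 to 0.153, limma adjusted p = 0.851), -0.07 for AICAR against forskolin (interval -0.157 to 0.026, adjusted p = 0.332) and 0.00 against control (interval -0.095 to 0.088, adjusted p = 0.957). Without forskolin replicate 1 the first of these was 0.102 and the second -0.106, and without forskolin replicate 3 they were 0.040 and -0.043. The mean of this probe, 7.04, was above that of 43.6% of all genes, near the median of the arrays. Its control value also lay within the 4.12 to 7.82 that most markers of other cell types read in control. Whether so low a reading reflects expressed Zfp36 was not tested. Its deposited value was the same to the last digit on 4 arrays, the 3 controls and AICAR replicate 1. Repeats of this kind occurred on at least 4 arrays for 3147 genes, or 15.8%, and on all 3 control arrays for 376 genes, or 1.89%. Whether this probe follows the Zfp36 message over its full range was not tested.

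Elavl1, the stabilising counterpart, read 11.65, 11.62 and 11.64 in control, 11.63, 11.65 and 11.53 with forskolin, and 11.69, 11.65 and 11.69 with forskolin and AICAR. All 9 values lay within a narrow band, in which forskolin replicate 3 was lowest and the AICAR arrays were highest. The log2 difference was -0.03 after forskolin (SE 0.04, 95% interval -0.125 to 0.056, limma adjusted p = 0.939), with the sign turned when forskolin replicate 3 was left out (0.002). AICAR added to forskolin gave 0.07 (interval -0.018 to 0.162, adjusted p = 0.29; 0.035 without forskolin replicate 3), and AICAR with forskolin against control 0.04 (interval -0.053 to 0.128, adjusted p = 0.533). The AICAR arrays did not overlap either other group for Elavl1. In that direction 11.5% of all genes did not overlap between the AICAR and forskolin groups, and 15.2% between AICAR and control.

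**Figure D2:**
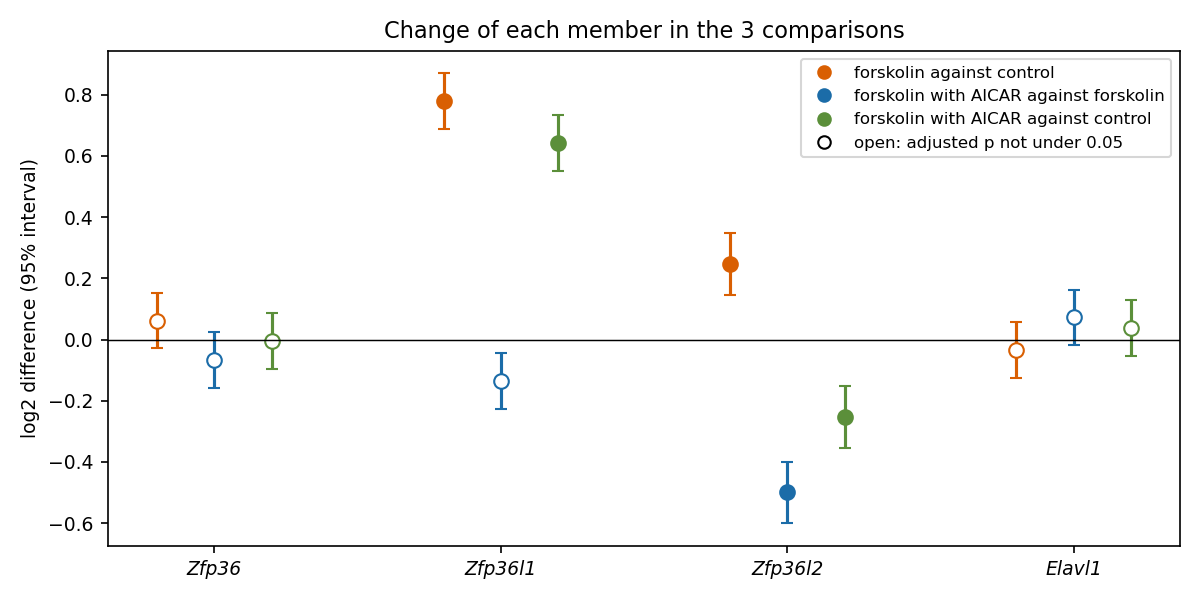
Log2 difference of each gene in the 3 comparisons, with its 95% interval from the fit across all genes; filled circles passed an adjusted p under 0.05. Zfp36l1 is raised in both comparisons with control (0.78 and 0.64), and Zfp36l2 lies on opposite sides of 0 with forskolin (0.25) and with AICAR added (-0.25 against control).

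Unequal change between the genes was tested within arrays, as the log2 difference of a pair of genes on each array, for the 6 pairs in the 3 comparisons. Zfp36l1 rose by 0.533 more than Zfp36l2 after forskolin, and by 0.897 more with AICAR and forskolin against control. AICAR lowered Zfp36l2 by 0.364 more than Zfp36l1 from the forskolin level. In each of these tests the groups did not overlap (two-sided exact permutation test, p = 0.1, adjusted p = 0.112 over 18 tests), and 0.1 is the smallest p that 3 arrays against 3 allow. Against Zfp36, Zfp36l1 rose by 0.717 more after forskolin (exact p = 0.1, adjusted p = 0.112). In 16 of the 18 tests the exact p was at this smallest value. The exceptions were Zfp36 against Zfp36l1 in the AICAR against forskolin comparison (exact p = 0.2, adjusted p = 0.212) and Zfp36 against Elavl1 after forskolin (exact p = 0.4, adjusted p = 0.4). None of the 18 had an adjusted p under 0.05. The smallest value means only that the arrays did not overlap. A difference of -0.041 reached it, for Zfp36 against Elavl1 with AICAR and forskolin against control. How often other pairs of genes reach it was not tested.

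The genes whose values ran most like those of Zfp36l1 over the 9 arrays, among 13878 with a mean log2 value of at least 6 and an established name, were Nr4a1 (Pearson r = 0.996), Fosb (0.989), Dusp16 (0.988), Sik1 (0.981) and Sema4c (0.977). Nr4a1 encodes an orphan nuclear receptor, Fosb an AP-1 subunit, Dusp16 a MAP kinase phosphatase, Sik1 a salt-inducible kinase and Sema4c a semaphorin. In all of them the treated arrays stood above control, with rises after forskolin of 2.64, 1.15, 0.90, 2.595 and 0.62 on the log2 scale and of 2.18, 0.97, 0.65, 2.58 and 0.42 with AICAR present. The arrays are shared by all these genes and fall into 3 groups, so r mostly records the order of the groups. That these genes rose like Zfp36l1 follows from how they were picked. Of the 5, 4 had a RefSeq promoter, and 3 of those held the TGACG core, which 20.8% of all promoters hold. A gene was counted if any of its promoters held the core, whereas 20.8% is a share of single promoters. The 2 are therefore not on the same basis. The count was the same, 3 of 4, for the genes most like Zfp36l2 described next. The core is shown with the bases around it for Nr4a1, which held 4 copies, and for Dusp16 and Fosb, which held 1 each. Sequences follow the gene's strand in GRCm38.p6, capitals mark the core or its reverse complement, and they lie at chr15:101266798-101266818 (plus strand, the copy nearest the start), chr6:134792686-134792706 (minus) and chr7:19310093-19310113 (minus).
Nr4a1: tctccatgCGTCAcggagcgc
Dusp16: gtttcaagTGACGccatctct
Fosb: gttgcgggTGACGcaagcgcg

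For Zfp36l2 the most alike were Ksr1 (r = 0.991), Klf3 (0.987), Cdr2l (0.985), Pfkfb3 (0.983) and Dact2 (0.982). Ksr1 encodes a scaffold of the Raf, MEK and ERK kinases, Klf3 a transcriptional repressor and Pfkfb3 an enzyme that makes an activator of glycolysis. All 5 were called lower with AICAR than with forskolin, with log2 differences of -0.22, -0.42, -0.46, -0.49 and -0.31. All 5 were also called lower than control, with differences of -0.13, -0.25, -0.18, -0.25 and -0.15. Over all genes 4.12% were called lower in the former contrast and 5.68% in the latter. The 5 were picked by their correlation with Zfp36l2 on these same arrays, so their shared direction follows from the choice. Their differences after forskolin alone were 0.09, 0.17, 0.28, 0.24 and 0.16, and of these that of Cdr2l passed (limma adjusted p = 0.0203). The TGACG core lay in a promoter of each of Ksr1, Klf3 and Pfkfb3, 3 of the 4 of these genes with a RefSeq promoter. For Ksr1 it did not lie in every promoter, and this count of genes cannot be set against the share of single promoters. Correlations over 0.9 were seen with 142 genes for Zfp36l2 and with 29 for Zfp36l1.

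**Figure D3:**
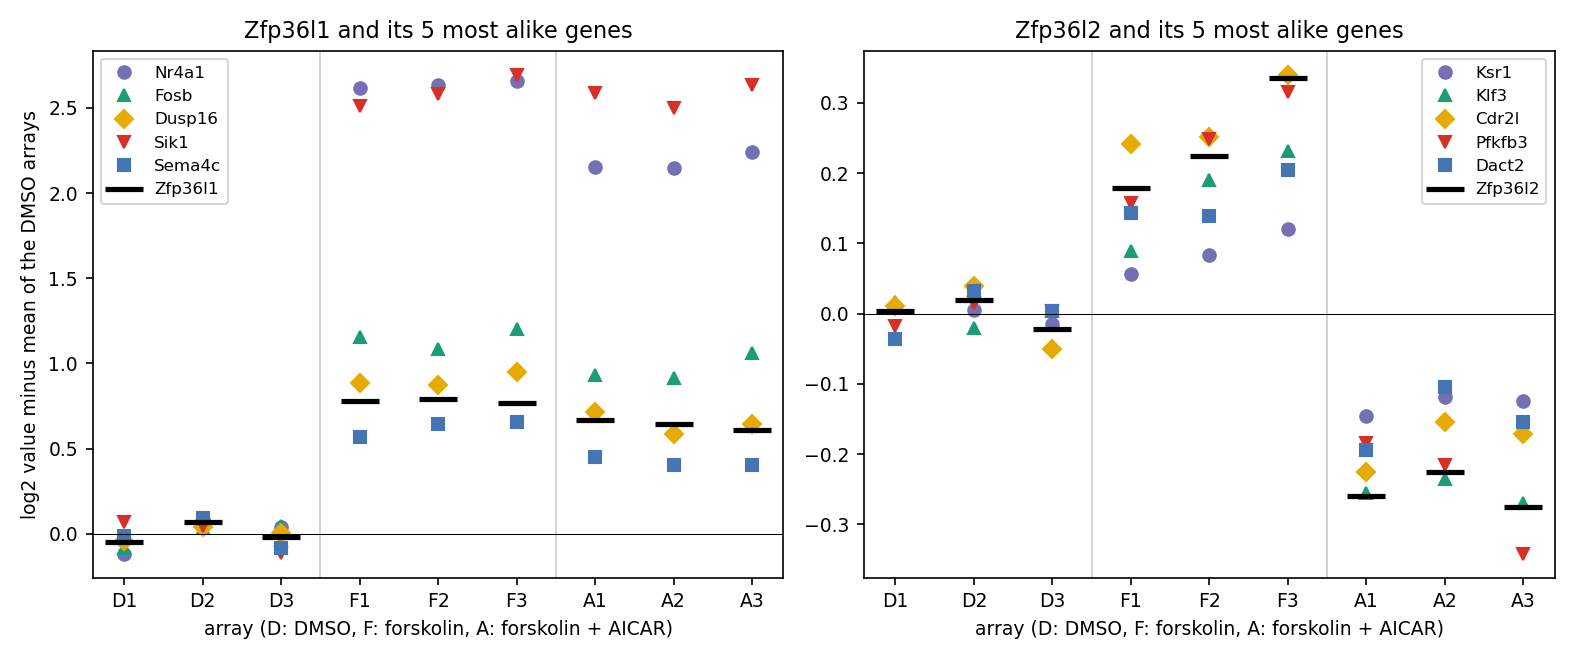
Log2 value minus the mean of the DMSO arrays (vertical axis) on each array (D, DMSO; F, forskolin; A, forskolin with AICAR) for Zfp36l1 (left) and Zfp36l2 (right), drawn as black dashes, with the 5 genes of highest Pearson correlation. On the left the A arrays stay well above 0, and on the right they lie below 0 for all 6 genes.

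The proteins that the ZFP36 family works through formed the next group, with 38 of 40 listed genes of deadenylation, decapping and the exosome measured. After forskolin 3 of the 38 rose (0.497% of all genes did), none fell and 35 did not pass, with a median difference of -0.013 against 0.003 over all genes. The 3 were Btg1 (0.39, SE 0.05, limma adjusted p = 0.00502), Btg2 (0.39, SE 0.03, adjusted p = 0.00068) and Tob1 (0.34, SE 0.06, adjusted p = 0.0376), the antiproliferative proteins of the BTG/TOB family that bind the CCR4-NOT deadenylases. AICAR lowered the same 3 genes from their forskolin level, with log2 differences of -0.51 for Btg2, -0.48 for Btg1 and -0.36 for Tob1, together with the exosome subunit Exosc1 at -0.19 (adjusted p = 9.29e-05, 0.000752, 0.00783 and 0.0396). These were 4 of the 38, where 4.12% of all genes were called lower. No member rose there, 34 did not pass, and the median was -0.060 against 0.023 over all genes. List medians were not recomputed after quantile normalization, and the part of the narrower spread on AICAR replicates 2 and 3 in them was not tested. With AICAR and forskolin the levels of Btg1 (10.79 ± 0.01, SD, n = 3), Btg2 (7.196 ± 0.03) and Tob1 (11.29 ± 0.12) stood beside 10.87 ± 0.06, 7.32 ± 0.03 and 11.31 ± 0.05 in control. None of these 3 differences from control passed (adjusted p = 0.262, 0.0538 and 0.824), and Exosc1, with -0.21 (adjusted p = 0.0225), was the 1 gene of the 38 that did, where 5.68% of all genes were called lower. Cnot1, the scaffold of the CCR4-NOT complex, gave differences of -0.00, 0.01 and 0.01 in the 3 comparisons (adjusted p = 0.999, 0.868 and 0.884). Tob1 lost its forskolin call without any 1 control or forskolin array or without AICAR replicate 2 (adjusted p up to 0.18). Exosc1 lost its call against forskolin without any 1 forskolin array, control replicate 1 or 2, or AICAR replicate 2 or 3 (up to 0.12), and against control without control replicate 2 or 3 or AICAR replicate 2 or 3 (up to 0.091).

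Of 25 measured genes for other RNA-binding proteins of mRNA stability, limma called none after forskolin, and none reached an unadjusted p under 0.05. AICAR added to forskolin raised Rc3h1, which encodes the decay factor Roquin-1, by 0.23 (SE 0.06, adjusted p = 0.0463). That call did not survive the loss of AICAR replicate 2, any 1 control array, or forskolin replicate 1 or 2 (limma p then up to 0.13 after adjustment). It was also lost with median centring and with the mean of a gene's probes. Of all genes 0.978% were called higher in this contrast. Against control none of the 25 was called, and 3 were at an unadjusted p under 0.05. Zfp36l3, a further relative by name, was kept in this list. It read 5.98 in control, 5.90 with forskolin and 6.15 with forskolin and AICAR, and was not called in any comparison. Khsrp, another AU-rich element decay factor, gave -0.01, -0.03 and -0.05 in the 3 comparisons in the order above (adjusted p = 0.987, 0.686 and 0.54). Hnrnpd, which encodes AUF1, gave 0.00, -0.06 and -0.06 (adjusted p = 0.999, 0.523 and 0.505).

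ZFP36 proteins are held inactive when p38 MAP kinase and its partner MK2 phosphorylate them and 14-3-3 proteins bind, and the phosphatase DUSP1 turns p38 off. Of 21 measured genes of these kinases, phosphatases and 14-3-3 proteins, 2 rose after forskolin (0.497% of all genes did), none fell and 19 did not pass. Dusp1 went from 10.66 ± 0.06 to 11.30 ± 0.03 (SD, n = 3; difference 0.64, SE 0.05, limma adjusted p = 0.000393). Mapkapk3, which encodes the MK2 relative MK3, went from 9.39 ± 0.08 to 9.84 ± 0.07 (0.45, SE 0.05, adjusted p = 0.00335). AICAR lowered both from there, with differences of -0.83 for Dusp1 and -0.40 for Mapkapk3 (adjusted p = 7.52e-05 and 0.00214), and no other gene of the 21 was called, where 4.12% of all genes were called lower. Against control none of the 21 was called by limma, with 4 at an unadjusted p under 0.05. Mapkapk2, the gene of MK2, gave 0.11, -0.02 and 0.09 (adjusted p = 0.605, 0.807 and 0.189). The Dusp1 and Mapkapk3 calls held with any 1 array left out.

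HuR is moved, modified and bound by a further group of proteins, of which all 13 listed genes were measured. Limma called none after forskolin, with 1 at an unadjusted p under 0.05 and 12 of the 13 differences below 0. Their median was -0.046 against 0.003 over all genes. AICAR added to forskolin raised Tnpo2, a transportin that imports HuR (0.25, SE 0.04, adjusted p = 0.00696), where 0.978% of all genes were called higher, and lowered Set, a phosphatase inhibitor that binds HuR (-0.38), and Prkaa1, a catalytic subunit of AMP-activated protein kinase (-0.24; adjusted p = 0.00699 and 0.0335). Set and Prkaa1 were also lower than control, with differences of -0.27 and -0.24 (limma adjusted p = 0.0265 and 0.0225). Over all genes 4.12% were called lower with AICAR than with forskolin, and 5.68% were called lower than control. With the mean of its probes Set gave smaller differences of -0.181 against forskolin (adjusted p = 0.035) and -0.123 against control (adjusted p = 0.084). Kpna2, the importin alpha that carries HuR, gave -0.05, -0.11 and -0.16 (adjusted p = 0.95, 0.328 and 0.147). Prkaa1 lost its call against forskolin without any 1 array but AICAR replicate 1 (adjusted p up to 0.12), and both Set and Prkaa1 lost theirs against control without any 1 control array or AICAR replicate 2 or 3 (up to 0.087).

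**Figure D4:**
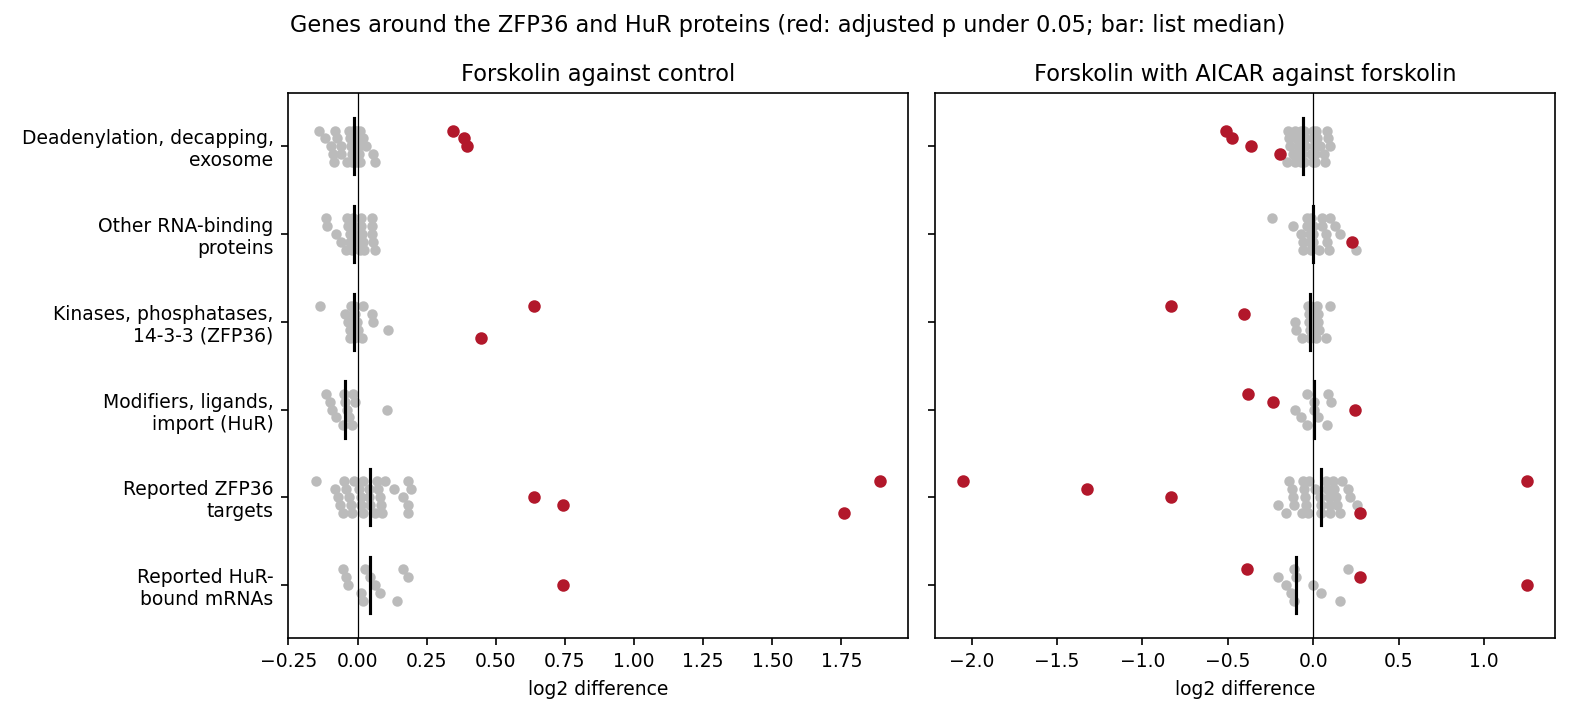
Log2 difference (horizontal axis) of every measured gene in 6 lists around the ZFP36 and HuR proteins, for forskolin against control (left) and AICAR added to forskolin (right). Red points passed an adjusted p under 0.05 and bars mark list medians; red points to the right after forskolin in the deadenylation and kinase lists (Btg1, Btg2, Tob1, Dusp1 and Mapkapk3) lie to the left when AICAR was added.

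Among 36 measured genes reported as targets of the ZFP36 family (Zfp36 itself is one), 4 rose after forskolin (0.497% of all genes did), none fell and 32 did not pass, with a median of 0.044 against 0.003 over all genes. They were Star (1.89), Plau, which encodes urokinase (1.76), Fos (0.74) and Dusp1. AICAR moved these 4 messages in different directions from their forskolin level. Star, Plau and Dusp1 fell, with differences of -2.05, -1.33 and -0.83, while Fos rose by 1.25 and Vegfa, the angiogenic factor, by 0.28 (limma adjusted p = 5.21e-07, 1.09e-05, 7.52e-05, 0.000104 and 0.00519). Over all genes 0.978% were called higher and 4.12% lower in that contrast. The other 31 did not pass, and the median was 0.044 against 0.023 over all genes. Against control, Fos (1.99), Plau (0.43), Vegfa (0.36) and Socs3 (0.32) were higher and Birc3 was lower (-0.20), and Star, with a difference of -0.16, did not pass (adjusted p = 0.106). Of all genes 3.04% were called higher and 5.68% lower there. Socs3 lost that call without control replicate 2 or 3 or AICAR replicate 2 or 3 (limma adjusted p up to 0.11), and also with the mean of a gene's probes. Birc3 lost it when AICAR replicate 2, control replicate 2 or 3, or any 1 forskolin array was removed (up to 0.15), and with quantile normalization its difference was -0.133 (adjusted p = 0.091). Tnf, the classic target of tristetraprolin, read 6.38 ± 0.11, 6.39 ± 0.04 and 6.59 ± 0.15 in the 3 groups (SD, n = 3), and none of its differences passed (adjusted p = 0.995, 0.162 and 0.104). The Tnf control value lay within the range of most markers of other cell types (4.12 to 7.82). Il6 (3.70), Il10 (4.67), Csf2 (5.25) and Ptgs2 (6.11) of this list also read low in control, while Myc (12.13) and Vegfa (11.50) read high. Fos, at 7.05 in control, lay in that range too and was called. Whether the low probes could follow their messages was not tested.

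Of 17 messages reported as bound by HuR, 13 were measured. After forskolin 1 of the 13 rose (Fos), where 0.497% of all genes did, and none fell. The median was 0.045 against 0.003 over all genes. AICAR added to forskolin raised Fos and Vegfa and lowered Sirt1, a deacetylase (-0.39, limma adjusted p = 0.00811), with a median of -0.098 against 0.023 over all genes. Of all genes 0.978% were called higher and 4.12% lower in that contrast. Sirt1 was also lower than control (-0.24, limma adjusted p = 0.0467), where 5.68% of all genes were called lower. That call was lost without any 1 control array, forskolin replicate 2 or AICAR replicate 2 or 3 (limma adjusted p up to 0.15). An array measures the level of a message and not its rate of decay, so neither list separates synthesis from stability.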

How the data were processed

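Total RNA of 9 MA-10 samples was hybridised to Affymetrix whole-transcript arrays. The authors deposited 1 log2 value per transcript cluster, here called a probe, which are credited to RMA and Partek in the submitters' processing notes; settings are not given in the sources used here, and no scanner files were used, so the scale and centring rest on these notes and on the values. Of 35557 probes, 21789 carried 1 gene symbol, 1621 several and 12147 none listed. The brightest single-symbol probe over the 9 arrays stood for each of 19938 genes. The table names no genome build. Promoter sequences are from RefSeq (GRCm38.p6), with 3 of the 4 genes matched.

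All arrays entered 1 limma fit (limma 3.58.1, R 4.3.3) with the moderated test, two-sided, Benjamini-Hochberg adjusted over all genes of a comparison, called at an adjusted p under 0.05. The fit was tested on simulated data for forskolin against control with 19938 genes: 99 of 100 genes changed by 1 on the log2 scale and 84 of 100 changed by 0.5 were recovered, with 6 false calls. Its noise was normal, independent between genes and arrays, and of the same SD in every group. In the data 46% of the spread within groups lay on 1 axis shared by genes, so these counts do not give the error rate of the calls here. Precision is limited by the number of arrays. The 4 genes and all lists were chosen with earlier results of these data known. Named genes were the 4 genes, all called list members, Star, Tnf, Btg2, Dusp1, Mapkapk2, Cnot1, Khsrp, Hnrnpd and Kpna2, and the 5 genes of highest correlation with each called member. Markers of Leydig, Sertoli, macrophage, germ, endothelial and peritubular cells or fibroblasts served to check the labelled cell type. Alternatives were a replicate block, a filter at a mean log2 value of 6, quantile normalization, median centring, another prior, fits of 2 groups, array weights, the mean of a gene's probes, and arrays left out. Control titles speak of no treatment while the treatment field names DMSO, and these samples were taken as DMSO controls.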

Additional observations from a re-analysis of the deposited data

How the results depend on the processing

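Of the 12 differences of the 4 genes, each under 18 settings, 9 kept their direction and their side of the threshold in all. The forskolin rise of Zfp36l2 (0.246) was not called with a replicate block (0.246, adjusted p = 0.17), median centring (0.22, 0.1), the 2 groups alone (0.246, 0.11) or replicate 3 of every group left out (0.191, 0.28); without single arrays it ranged from 0.202 to 0.28. Zfp36l1 for AICAR against forskolin became called with a trended and robust prior (-0.135) and array weights (-0.139). Elavl1 after forskolin ranged from -0.057 to 0.002 without single arrays, turning sign without forskolin replicate 3, and was 0.006 without replicate 3 of every group. The counts of called genes moved more. After forskolin they were 83 with the replicate block, 436 with array weights, 43 without replicate 3 of every group and 76 to 144 with single arrays left out. AICAR against forskolin gave 583, 5729 and 241 under those settings, 496 with the 2 groups alone and 487 to 3324 with single arrays left out (3324 without AICAR replicate 1). AICAR against control gave 874, 6619, 377 and 758, and 660 to 4741 (4741 without AICAR replicate 1). Deviations of same-numbered arrays correlated from -0.406 to 0.329 over 9 pairs, and 2 pairs, both of control with forskolin (0.244 for number 1 and 0.329 for number 3, against 0.013 for number 2), were over 0.1. Not every pair was, so the replicate numbers were not taken to pair samples, and the block ended no call of the 4 genes but that of Zfp36l2 after forskolin. Arrays of unlike number correlated from -0.304 (control 3 with forskolin 1) to 0.491 (control 3 with AICAR 1), with 0.454 for forskolin 3 with AICAR 1. The block followed the labelled numbers only, so spread shared by arrays of unlike number was not fitted. Calls of list genes, recomputed after the data were seen, held in every setting for 12 of 32 and without any 1 array for 22 of 32, and none turned sign. The causes of these changes were not tested.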
